A study of Mus musculus with 2 samples.

Results

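Of the 2202 annotated microRNA genes counted in adult mouse heart, 9 form the muscle set described here: Mir499, Mir208a and Mir208b, which lie in introns of myosin heavy chain genes, and Mir1a-1, Mir133a-2, Mir1a-2, Mir133a-1, Mir206 and Mir133b, which lie as pairs in 3 clusters. They were taken by gene symbol, through the Ensembl identifier of each row, and all 9 were found in both count tables. The 2 libraries hold small RNA (labelled size range under 30, unit not given) from heart of female 5xFAD/CAST mice, aged 8 to 10 months, and form 1 group with no control. 5xFAD is a transgenic Alzheimer disease model whose transgenes are driven by a neuronal Thy1 promoter, and CAST is a strain derived from wild mice; the labels used here do not say whether the sampled animals carried the transgenes. The labels number the libraries as biological replicates 1 and 2 but give them the same donor identifier, so a difference between them may be technical. With 1 library on each side, the p-values below cover counting error only, use no spread between samples and give no replicate check.

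MicroRNAs are short RNAs cut from a hairpin precursor. They guide repression of messenger RNAs that pair with the seed, the stretch near the 5′ end of the mature strand. Muscle makes a small set of them from genes tied to the contractile programme. In the mouse, Mir208a sits in Myh6, the fast myosin heavy chain of the adult ventricle. Mir208b sits in Myh7, the slow myosin heavy chain that dominates the fetal heart and slow skeletal fibres, and Mir499 sits in Myh7b, a slow-type myosin gene. MiR-1 and miR-133a are made together from a pair of clusters in heart and skeletal muscle, where miR-1 is known for promoting differentiation and miR-133 for restraining growth and smooth muscle genes. Mir206 and Mir133b form the third cluster and are known from skeletal muscle and its regeneration.

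The mature sequences of the myosin-hosted genes are shown first, because they share a seed core and are told apart by the remaining bases. All sequences are from RefSeq (GRCm38.p6, the same assembly as mm10), written 5′ to 3′ with the seed, bases 2 to 8, in capitals. Mir499 lies on the plus strand at chr2:155622880-155622958, in intron 19 of Myh7b. Mir208a and Mir208b lie on the minus strand of chromosome 14, Mir208a at chr14:54949060-54949142 in intron 29 of Myh6, and Mir208b at chr14:54975700-54975776 in intron 31 of Myh7, 26557 bases away.
miR-499-5p: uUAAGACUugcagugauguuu
miR-208a-3p: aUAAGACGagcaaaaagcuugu
miR-208b-3p: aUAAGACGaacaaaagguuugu
miR-208a-5p: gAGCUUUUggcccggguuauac
miR-208b-5p: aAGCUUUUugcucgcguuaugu

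The 3p strands of Mir208a and Mir208b have the same seed and were identical at 19 of 22 positions. They differ by G10A, A16G and C18U, with the base of miR-208a-3p first and positions counted from 1 at the 5′ end. The 5p strands also share their seed and were identical at 16 of 22 positions. MiR-499-5p has the same bases 2 to 7, UAAGAC, as both 3p strands, and departs from them at the last seed base by U8G. Of its 21 bases, 12 matched miR-208a-3p and 10 matched miR-208b-3p by position. The longest run that the precursors of Mir208a and Mir208b share was 14 bases, shorter than a mature strand.

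The second set shows what separates the third cluster from the other muscle clusters. Mir206 and Mir133b lie on the plus strand of chromosome 1, at chr1:20679010-20679082 and chr1:20682769-20682887, with 3686 bases between them, inside the noncoding gene Gm28653. In a transcript of that gene with 3 exons, Mir133b overlaps exon 3 and Mir206 lies in intron 2, whereas an unspliced transcript covers both. Mir1a-1 lies at chr2:180389048-180389124 and Mir133a-2 at chr2:180398379-180398482, both on the plus strand, 9254 bases apart, outside any annotated host gene. Of the 9 genes, 6 had a mature sequence in the RefSeq table, 11 sequences in all.
miR-206-3p: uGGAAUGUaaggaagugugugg
miR-206-5p: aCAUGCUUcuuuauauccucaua
miR-1a-1-5p: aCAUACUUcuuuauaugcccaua
miR-133b-3p: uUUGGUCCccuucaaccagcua

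The seed of miR-206-3p, GGAAUGU, was also present in the precursors of Mir1a-1 and Mir1a-2 and in none of the other 6 precursors. The 5p strands miR-206-5p and miR-1a-1-5p were identical at 20 of 23 positions and differ in the seed at G5A, with the base of miR-206-5p first. Of the 11 mature sequences, 10 had first 18 bases found at 1 microRNA locus only, counting overlapping genes of either strand as 1 locus. The exception was miR-133b-3p, whose first 18 bases occur at 3 loci. Taken whole, each of the 11 sequences, miR-133b-3p included, was found at 1 microRNA locus. The 11 sequences include none from Mir1a-2, Mir133a-1 or Mir133a-2, and only the 5p strand of Mir1a-1. The count of 10 therefore does not cover the stretches that the Mir1a and Mir133a genes share.

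How much of each precursor is its own differed between the sets, and this bears on every count below, because reads that mapped to several loci were assigned to no gene. Every 18-base window of Mir499 (62 windows), Mir208a (66), Mir208b (60) and Mir206 (56) was found at 1 microRNA locus. Over all 2202 genes, 1067 (48.5%) had only such windows. In Mir133b, 98 of 102 windows were at 1 locus, and the shared stretch, bases 66 to 86 of the precursor, lies inside miR-133b-3p, which spans bases 66 to 87. In Mir1a-1 49 of 60 windows and in Mir1a-2 44 of 55 were at 1 locus, and the pair shares a run of 28 bases in the 3′ part of the hairpin. The Mir133a genes had a smaller share, with 66 of 87 windows in Mir133a-2 and 30 of 51 in Mir133a-1, and share stretches in both arms, the longest of 31 bases. Windows of 16 or 20 bases left the same 4 genes with no shared window.

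**Figure D1:**
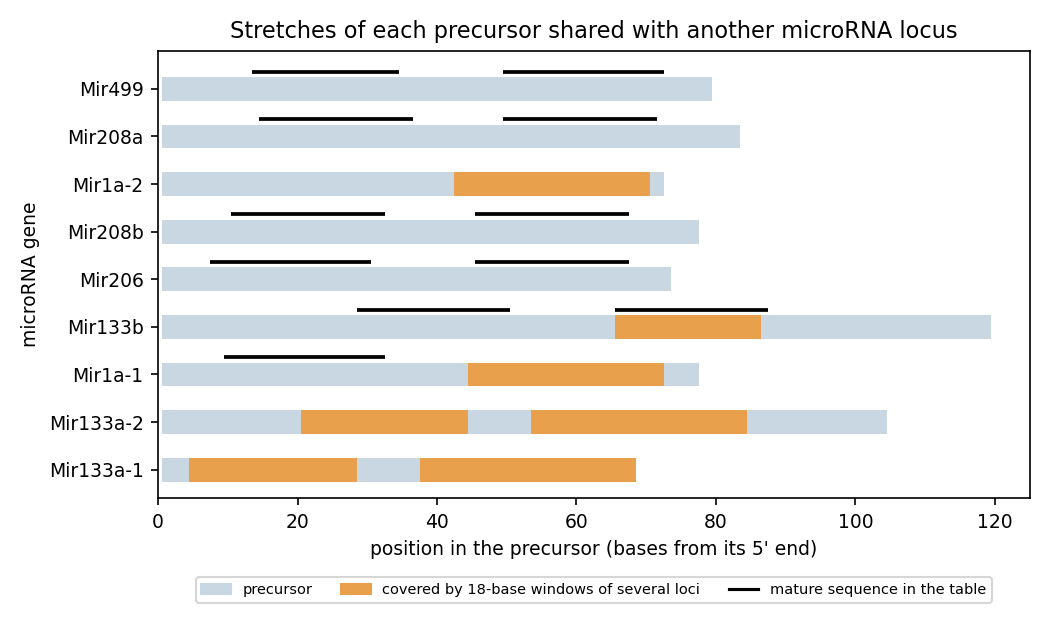
Each bar is a precursor from its 5′ end (horizontal axis, bases), with genes in order of mean level from the top. Orange marks bases covered by 18-base windows found at several microRNA loci, and black lines mark the mature sequences in the RefSeq table; Mir499, Mir208a, Mir208b and Mir206 have no orange stretch, and in Mir133b the orange stretch of bases 66 to 86 lies in miR-133b-3p.

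MicroRNA genes received 4186560 reads in replicate 1 and 2877511 in replicate 2, on the strand of the gene, out of 13233055 and 8930289 reads. Reads at several loci numbered 5614018 in replicate 1 and 3857067 in replicate 2, or 204 and 279 for each read counted for the 9 muscle genes. These are reads of the whole library, and how many of them fit the 9 genes was not measured. Levels are given as CPM, counts per 1000000 gene counts, without division by length, since a small RNA read spans about a whole mature strand. Per gene, reads of the 5′ and 3′ strand were counted together. The limit that a count of 0 allows, 3 counts, is 0.717 CPM in replicate 1 and 1.04 CPM in replicate 2; intervals and limits cover counting error only. In heart tissue, fewer muscle cells and less RNA per cell cannot be told apart.

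All 9 genes reached 1 CPM in both libraries, against 380 of the 2202 annotated genes (17.3%). In sum they took 0.657% of all gene reads in replicate 1 and 0.480% in replicate 2, with 95% limits (Clopper-Pearson, exact) of 0.649 to 0.665 and of 0.472 to 0.488. The average was 0.568% ± 0.125 (SD, n = 2). Of these reads, each assigned to 1 locus, the 3 myosin-hosted genes supplied 98.5% in replicate 1 and 98.2% in replicate 2. The 6 cluster genes supplied 1.55% and 1.77%, or 426 and 245 reads. Reads that fit several loci were left out, which limits the Mir1a, Mir133a and Mir133b counts. The split is therefore not that of the microRNAs themselves. The mean level of the highest of the 9 genes was 3395 times that of the lowest. The order of the 9 genes was the same in both libraries except that Mir206 and Mir133b changed places.

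Mir499, whose host Myh7b encodes a slow-type myosin, was the highest of the 9 in reads unique to a locus. It had 20039 counts (4787 CPM, exact Poisson 95% interval 4720 to 4853) in replicate 1 and 10412 counts (3618 CPM, 3549 to 3689) in replicate 2. It ranked 28 and 33 among all 2202 genes and made up 72.9% and 75.4% of the reads of the muscle set. Neither the ranks nor these shares include reads that fit several loci, such as those of stretches the Mir1a and Mir133a genes share.

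Mir208a, the microRNA of the adult ventricular myosin gene Myh6, was second. It had 6857 counts (1638 CPM, interval 1599 to 1677) in replicate 1 and 3091 counts (1074 CPM, 1037 to 1113) in replicate 2, at ranks 51 and 59. Mir499 was above it in both libraries, and the lowest Mir499 value, 3618 CPM, exceeded the highest Mir208a value, 1638 CPM.

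Mir208b, the microRNA of the fetal myosin gene Myh7, was far below its neighbour on chromosome 14. It had 175 counts (41.8 CPM, interval 35.8 to 48.5) in replicate 1 and 64 counts (22.2 CPM, 17.1 to 28.4) in replicate 2, at ranks 180 and 206. Since each 18-base window of Mir208a and Mir208b is at 1 microRNA locus, this gap does not rest on windows shared among microRNA genes. The genome outside microRNA genes was not searched.

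Mir1a-2, a source of miR-1, had 304 counts (72.6 CPM, interval 64.7 to 81.3) in replicate 1 and 194 counts (67.4 CPM, 58.3 to 77.6) in replicate 2, between Mir208a and Mir208b in both libraries. Mir1a-1, the other source of miR-1, had 9 counts in each library (2.15 and 3.13 CPM). Both genes encode the same main miR-1 strand, yet they differed widely in reads unique to their locus. The level of miR-1 itself is not given by these counts, since reads that fit both genes were left out.

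Mir206, the skeletal muscle relative of miR-1, had 68 counts (16.2 CPM, interval 12.6 to 20.6) in replicate 1 and 11 counts (3.82 CPM, 1.91 to 6.84) in replicate 2. Its cluster partner Mir133b had 31 counts (7.40 CPM, 5.03 to 10.5) in replicate 1 and 21 counts (7.30 CPM, 4.52 to 11.2) in replicate 2. The Mir206 values lie on either side of the Mir133b values, so the order of this pair was not fixed.

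Mir133a-2 and Mir133a-1, the sources of miR-133a, had the lowest mean levels in reads unique to a locus. Mir133a-2 had 8 counts (1.91 CPM) in replicate 1 and 7 counts (2.43 CPM) in replicate 2. Mir133a-1 had 6 counts (1.43 CPM) in replicate 1 and 3 counts (1.04 CPM) in replicate 2, where it stood at the limit of 3 counts. At this depth Mir1a-1, Mir133a-2 and Mir133a-1 had overlapping counting intervals in each library, with ranges inside 0.215 to 5.94 CPM over the 3 genes and both libraries, and their order was not detectable.

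**Figure D2:**
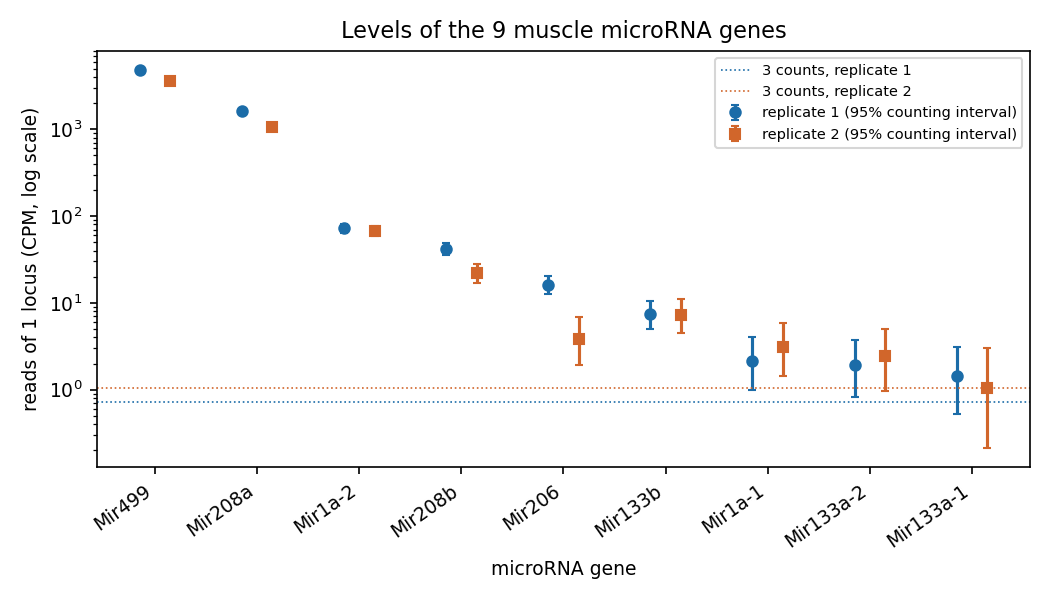
The vertical axis gives CPM of reads assigned to 1 locus, on a log scale, for each gene (horizontal axis, ordered by mean level). Replicate 1 is shown as circles, replicate 2 as squares and exact Poisson 95% intervals as bars. Dotted lines mark 3 counts in each library; Mir499 and Mir208a stand above the other genes in both libraries, at 1074 CPM or more, and Mir133a-1 in replicate 2 stands on its line at 1.04 CPM.

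In order of mean level the genes ran Mir499, Mir208a, Mir1a-2, Mir208b, Mir206, Mir133b, Mir1a-1, Mir133a-2 and Mir133a-1. The means of Mir499 and Mir208a, 4202 ± 826 and 1356 ± 399 CPM (SD, n = 2), differed 3.10-fold. The step with the widest gap came next, with Mir208a 19.4-fold above Mir1a-2, at 70.0 ± 3.67 CPM (SD, n = 2). Mir1a-2 was 2.19-fold above Mir208b, at 32.0 ± 13.8 CPM, and Mir208b 3.19-fold above Mir206, at 10.0 ± 8.78 CPM (SD, n = 2). The step between Mir208b and Mir206 was 2.57-fold in replicate 1 and 5.82-fold in replicate 2, and the one between Mir1a-2 and Mir208b was 1.74-fold and 3.03-fold. Each of these 4 steps held across libraries, and the counting intervals did not overlap in either library. The pairs Mir206 with Mir133b and Mir1a-1 with Mir133a-2 overlapped across the libraries. For Mir133b over Mir1a-1 and Mir133a-2 over Mir133a-1 the libraries did not overlap, but the counting intervals did in at least 1 library. For the Mir1a genes, the Mir133a genes and Mir133b, this order is that of reads unique to a locus, not of the microRNAs.

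Ratios of counts inside a library do not depend on its total or on the levels of genes outside the pair. For the Mir1a genes, the Mir133a genes and Mir133b, the counts leave out reads that fit several loci, so their ratios depend on shared sequence. Mir208b had 0.0255 reads for each Mir208a read in replicate 1, where the exact 95% interval ran between 0.0218 and 0.0297, and 0.0207 in replicate 2, where it ran between 0.0159 and 0.0265. The intervals overlap, and the average ratio was 0.0231 ± 0.00341 (SD, n = 2). Mir499 had 2.92 reads per Mir208a read in replicate 1 (interval from 2.843 up to 3.004) and 3.37 in replicate 2 (3.24 to 3.51), with no overlap. The 3 myosin-hosted genes had the same order in both libraries, and the proportion of Mir499 to Mir208a shifted by more than counting error.

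In reads unique to a locus, Mir1a-2 far exceeded both its copy Mir1a-1 and its cluster partner Mir133a-1. Mir1a-1 had 0.0296 reads per Mir1a-2 read in replicate 1 (exact 95% limits 0.0134 to 0.0569) and 0.0464 in replicate 2 (0.0209 to 0.0899). Mir133a-1 had 0.0197 reads per read of its cluster partner Mir1a-2 in replicate 1 (0.00719 to 0.0435) and 0.0155 in replicate 2 (0.00316 to 0.0459). In the chromosome 2 cluster, Mir133a-2 had 0.889 reads per Mir1a-1 read in replicate 1 (0.298 to 2.60) and 0.778 in replicate 2 (0.246 to 2.35), and both intervals include 1.

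In the Mir206 cluster the proportion shifted between the libraries by more than counting error. Mir206 had 2.19 reads per Mir133b read in replicate 1 (exact 95% limits 1.41 to 3.47) and 0.524 in replicate 2 (0.228 to 1.14). Those intervals do not overlap, and that of replicate 2, on 11 and 21 reads, includes 1. Reads of part of miR-133b-3p may be missing from the Mir133b counts, since most of that strand is shared with other loci. The whole strand was found at 1 microRNA locus, and Mir206 has no shared window. Between the Mir133a genes, Mir133a-1 had 0.750 reads per Mir133a-2 read in replicate 1 (0.214 to 2.46) and 0.429 in replicate 2 (0.0715 to 1.88), on 14 and 10 reads in all.

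**Figure D3:**
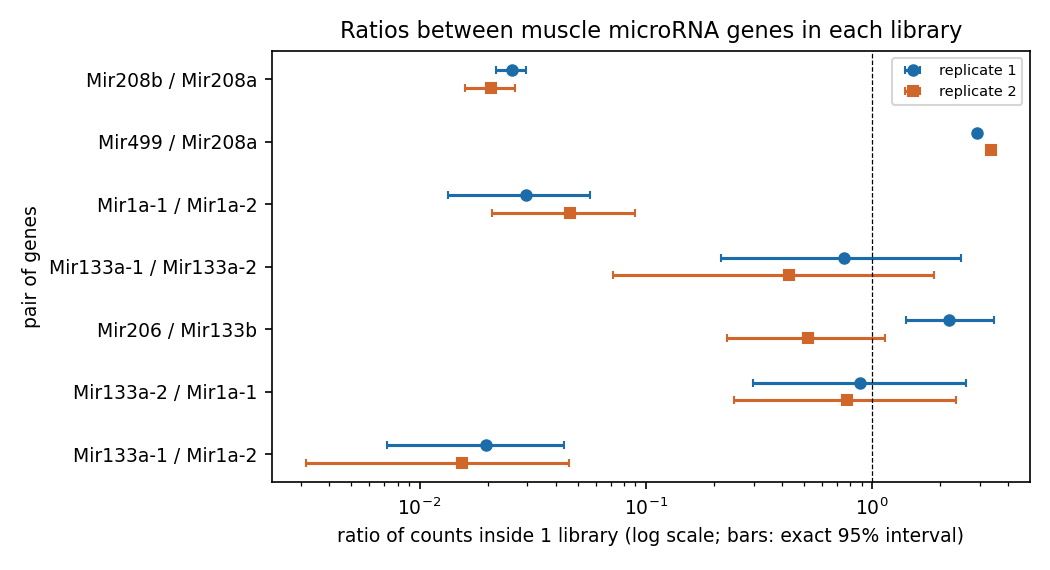
For each pair of genes (vertical axis) the horizontal axis gives the ratio of counts inside a library on a log scale, with replicate 1 as circles, replicate 2 as squares and exact 95% intervals as bars. The intervals of the 2 libraries overlap for 5 of the 7 pairs and are apart for Mir499 over Mir208a and for Mir206 over Mir133b, where the ratio is 2.19 in replicate 1 and 0.524 in replicate 2.

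Between the libraries, Mir499, Mir208a, Mir208b and Mir206 were higher in replicate 1 by more than counting error, and Mir1a-2 and Mir133b did not pass the test. The test was a two-sided exact binomial test of each gene's counts given totals scaled by trimmed mean of M-values (TMM). Benjamini-Hochberg adjustment ran over the 309 genes with enough reads in both libraries to be kept. The test compares these libraries, not conditions. Since the test holds a difference against counting error alone, passing it depends on read depth as well as on the ratio, and 196 of the 309 genes passed. Of the 9 muscle genes, 6 were kept, while Mir1a-1, Mir133a-2 and Mir133a-1, with at most 9 counts in a library, were not. Of the 6, 4 were higher in replicate 1, where 28.2% of all tested genes were, and 0 were lower, where 35.3% of all tested genes were. With a 2-fold minimum added, 1 muscle gene (Mir206) was higher in replicate 1, as were 12.9% of all tested genes, and 0 were lower, as were 5.5%. The balance of all genes turned with that rule, from 44.4% of the genes that passed being higher in replicate 1 to 70.2%. The median log2 ratio of replicate 1 over replicate 2 was 0.43 for the 6 genes and -0.01 for all 309.

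Mir206 had the highest ratio of the 6, with a log2 ratio of 2.02 (exact 95% interval 1.09 to 3.08, adjusted p = 1.93e-06 in the exact binomial test). Of the 309 tested genes, 12 (3.88%) had a ratio farther from 0 than Mir206. Genes short of reads in either library, such as Mir9-3 with 3 and 63 counts, were not tested, so this share leaves them out. Mir133b, from the cluster of Mir206 and also known from skeletal muscle, had a log2 ratio of -0.05 (interval -0.90 to 0.82, adjusted p = 0.931 in the exact test). With 31 and 21 counts, the interval of Mir133b still holds changes of nearly 2-fold either way.

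The myosin-hosted genes had smaller log2 ratios, and the interval of Mir208b overlapped that of Mir206. Mir208b had a log2 ratio of 0.84 (interval 0.42 to 1.28, adjusted p = 0.000107), Mir208a of 0.54 (0.48 to 0.60, adjusted p = 3.93e-68) and Mir499 of 0.33 (0.30 to 0.37, adjusted p = 8.51e-82), by the same exact test. Of the tested genes, 48.2% lay farther from 0 than Mir208a and 63.1% farther than Mir499. Mir1a-2 had a log2 ratio of 0.04 (interval -0.23 to 0.30, adjusted p = 0.885 in the exact test).

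**Figure D4:**
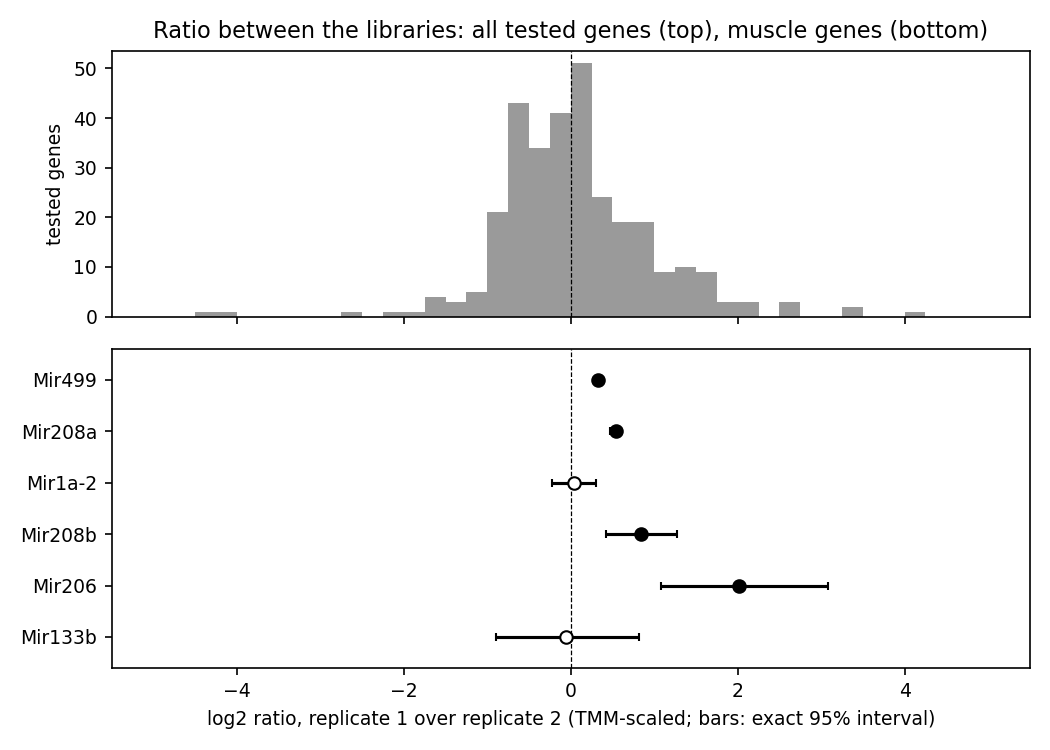
The upper panel counts all 309 tested genes by log2 ratio of replicate 1 over replicate 2 (horizontal axis), and the lower panel gives the 6 tested muscle genes with exact 95% intervals, filled where the adjusted p was under 0.05. Mir206 stands farthest to the right at 2.02, and the open points of Mir1a-2 and Mir133b lie at 0.04 and -0.05.

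Markers of other cell types also moved between the libraries. Of all 309 tested genes, 28.2% were higher in replicate 1 and 35.3% lower. The endothelial gene Mir126a stood at 174314 CPM in replicate 1 and 46780 CPM in replicate 2, and the erythroid genes Mir451a and Mir144 summed to 755 and 230 CPM, all 3 higher in replicate 1 by the test. Mir486, in the muscle and red cell gene Ank1 and listed with striated muscle, was lower in replicate 1 (992 and 1097 CPM). Both smooth muscle genes (Mir143, Mir145a; 32911 and 56334 CPM summed) and all 4 leukocyte genes (Mir142, Mir223, Mir150, Mir155; 5369 and 7640 CPM) were lower in replicate 1. Of 4 fibroblast genes, 1 (Mir214) was higher, 1 (Mir21a) lower and 2 not tested. Those not tested were Mir199a-1, at 0 in both libraries, and Mir199a-2, with 20 and 2 counts (4.78 and 0.695 CPM). The 4 fibroblast genes summed to 5295 and 3726 CPM. Mir21a also stands on the list of other striated muscle microRNA genes. The hepatocyte gene Mir122 stood at 19.1 and 57.3 CPM and was lower in replicate 1. The neuronal list summed to 97.2 and 66.7 CPM, with 4 of its 7 genes at 0 in both libraries. Of the others, Mir137 (96.5 and 43.8 CPM) was the 1 gene tested and was higher in replicate 1, while Mir9-3 had 3 and 63 counts (0.717 and 21.9 CPM) and Mir9-1 had 0 and 3 counts. Their part in the shifts of the muscle genes was not tested. All cardiomyocyte and skeletal muscle markers on the lists are themselves among the 9 genes, so the heart label had no separate check.

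Mir1a-2 could be counted only with regard to strand. Mir1a-2 and Mir133a-1 lie on the minus strand of chromosome 18, 2504 bases apart, in an intron of the noncoding gene Mir133a-1hg and opposite to an intron of Mib1, a ubiquitin ligase gene of Notch signalling. Mir1b, an annotated microRNA gene on the plus strand, overlaps Mir1a-2, and no other annotated microRNA gene overlaps any of the 9. On the strand of Mir1a-2 there were 304 reads in replicate 1 and 194 in replicate 2, against 1 and 0 on the strand of Mir1b. When strand was ignored, Mir1a-2 had 0 counts in both libraries, and the other 8 genes had the same counts as on their own strand. The other 8 had 0 reads on the opposite strand in both libraries.

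Each myosin-hosted gene had genes outside the muscle set close to it in level. By distance in log2(CPM + 0.5) over the 2 libraries, Mir499 was nearest to Mir100 (4091 and 3339 CPM), Mir34a (6015 and 3681) and Mirlet7f-2 (5155 and 4651). Mir208a was nearest to Mir185 (1551 and 1187 CPM), Mir15b (1766 and 964) and Mir92-1 (1507 and 1377). Mir208b was nearest to Mir3068 (41.1 and 22.2 CPM), Mir29b-2 (49.9 and 26.4) and Mir3058 (48.0 and 28.5). With 2 libraries, such nearness describes level only.

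A list of other microRNA genes known from striated muscle or its hypertrophy split evenly between the libraries. Of its 8 genes, 4 were higher in replicate 1 (Mir22, Mir195a, Mir30a and Mir29a) and 4 lower (Mir486, Mir378a, Mir23a and Mir21a), with a median log2 ratio of -0.04, against -0.01 for all 309 tested genes. Of all tested genes, 28.2% were higher and 35.3% lower. Passing depends on read depth too, and Mir30a passed at a log2 ratio of 0.13. Mir22, known for a role in cardiac hypertrophy, had a log2 ratio of 2.51, with 54550 CPM in replicate 1 and 9084 CPM in replicate 2. Mir486, in the muscle and red cell gene Ank1, stood at 992 and 1097 CPM, beside 1638 and 1074 CPM for Mir208a.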

How the data were processed

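The authors deposited, per library, a table of raw read counts per microRNA gene, with columns for reads regardless of strand, on the strand of the gene and on the opposite strand. The build (mm10) and annotation (M21) are per the deposited readme; aligner and counter: not given in the sources used here. Each table opens with 4 rows of reads without a gene, which stayed out of totals and tests. In replicates 1 and 2 they held 19.0% and 17.5% unmapped reads, 42.4% and 43.2% at several loci and 6.94% and 7.11% outside genes.

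The strand of the gene was used. All 2202 identifiers matched the M21 annotation, which gave symbols, hosts and precursors. Windows of 18 bases were compared between precursors on both strands. Genes kept by edgeR's filterByExpr (minimum count 10) were tested, across all genes, with exact binomial tests on TMM-scaled totals (edgeR 4.0.16, R 4.3.3, scipy 1.17.1, Python 3.11.15; threshold 0.05). A quasi-likelihood fit was not possible with 1 library on each side. DESeq2 1.42.0 gave alternative size factors. The libraries were not duplicates (chi-square 830 per degree of freedom over 709 genes). Steps were tested on simulated data.

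Named genes are, by rule, the 9 members, microRNA genes within 10 kb, the 3 genes nearest in level to each myosin-hosted gene, and the listed genes. Members and lists were chosen with earlier results of these data known. Alternatives covered strand, denominators, normalization, filters, call rule, detection threshold, window length and leaving out each replicate.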

Additional observations from a re-analysis of the deposited data

How the results depend on the processing

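The summed share of the 9 genes was 0.763% regardless of strand, 0.181% of all reads and 0.222% of mapped reads, against 0.568% as reported, and 0.480% to 0.657% when a replicate was left out. The higher share regardless of strand came from a smaller total of gene counts, not from more reads of the 9 genes. Without strand, 9.67% and 6.38% of all reads in replicates 1 and 2 were ambiguous between genes, and Mir1a-2 fell to 0. At 10 CPM in both libraries 4 of the 9 genes were detected, against 10.8% of all 2202 genes; regardless of strand 8 were, against 17.1%, and leaving out a replicate left 9, against 18.7% to 20.2%. With a 2-fold minimum beside the adjusted p, 57 genes differed between the libraries instead of 196, and 1 muscle gene (Mir206) instead of 4, and 40 of the 57 were higher in replicate 1, against 87 of the 196. With either of the other normalizations 195 of 309 tested genes passed, and 4 of 6 muscle genes. With no filter beyond 1 count 214 of 709 genes passed, and 4 of 9 muscle genes. Regardless of strand 174 of 288 genes passed, and 4 of 5 muscle genes. The 4 muscle genes were higher in replicate 1 under each of these settings, as were 44.9% to 49.7% of all genes that passed. Without a replicate, the ratio of Mir208b to Mir208a was 0.0207 to 0.0255. The log2 ratio of Mir133b, not past the test, was 0.02 with plain totals and 0.000114 regardless of strand, against -0.05. No paired analysis was possible because the design holds 1 group. Depth limits the genes under 10 counts, and reads at several loci limit the Mir1a, Mir133a and Mir133b values.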
